A study of Macaca mulatta with 10 samples.

Results

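Transcript levels in the Centre Median and the Medial Thalamus of the rhesus monkey (Macaca mulatta) were compared directly, array against array. These were 4 of the 10 arrays of a study of 5 dorsal thalamic nuclei, taken by the nucleus in their titles, with replicates 1 and 2 of each nucleus. Both groups were micro-punches of untreated adult brain, with no other treatment, genotype or age given on the labels. Biotin-labelled material made from total RNA was applied to the Affymetrix U133A array, whose probes were designed for human transcripts. The labels do not say whether replicates came from separate animals, or whether a punch pooled tissue. The p-values therefore measure only a spread between arrays, which may be technical. That spread was estimated over all 10 arrays, and not only over the 4 compared. Levels were read for 11963 genes as log2(intensity + 1), and every difference is Centre Median minus Medial Thalamus.

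The centre median is an intralaminar nucleus. It sends its main output to the motor part of the striatum and receives from motor cortex, the basal ganglia and the brainstem. The medial thalamus is dominated by the mediodorsal nucleus, which exchanges signals with prefrontal cortex, and its inner edge borders the midline nuclei, the habenula and the choroid plexus of the third ventricle. Relay neurons of both regions release glutamate, and they differ in calcium-binding proteins, peptides, receptors and myelinated input. A punch holds neurons, glia and vessels together, so fewer cells of a type and less RNA per cell cannot be told apart in any value given here.

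The replicate numbers marked the larger difference among these 4 arrays. Across genes, the correlation between the nuclei was 0.979 in replicate 1 and 0.990 in replicate 2, whereas the correlation between replicates was 0.961 within the Centre Median and 0.941 within the Medial Thalamus. Differences were therefore taken within each replicate number, giving a replicate 1 pair and a replicate 2 pair, and the limma fit carried the replicate number as a block. Genes of relay neurons were high on all 4 arrays, at 10.33 to 10.81 for SLC17A6, the vesicular glutamate transporter, and 11.78 to 12.74 for TCF7L2, a thalamic transcription factor. The replicate 1 arrays differed in XIST, the transcript of the inactive X chromosome, at 8.96 in the Centre Median and 6.70 in the Medial Thalamus, against 9.86 and 10.34 in replicate 2. RPS4Y1, a Y-linked ribosomal gene, stood at 7.65 and 8.16 in replicate 1 and at 7.15 and 7.04 in replicate 2. The replicate 1 pair was thus less alike in these sex-linked transcripts than the replicate 2 pair. The actin control read 0.46 in the Centre Median and -0.09 in the Medial Thalamus for its 3' minus 5' signal in replicate 1, and 1.15 and 1.34 in replicate 2. Medial Thalamus replicate 2 stood apart from the other arrays in genes of the choroid plexus and habenula, described further on. The part of these features in the results was not tested beyond the fits reported beside them.

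Few genes separated the nuclei, and most of those that did were higher in the Centre Median. Of 11963 genes, 9 were called by limma at a Benjamini-Hochberg adjusted p under 0.05, which is 0.0752% of the genes tested. The 7 higher genes (0.0585%) were MC4R, CRYM, SERPINI1, LMO1, TPBG, DIRAS3 and EPHA4, and the 2 lower genes (0.0167%) were ADCYAP1 and NPTX2. At an unadjusted p under 0.05 there were 1006 genes, of which 595 were higher and 411 lower. Without the replicate block limma called 1 gene (0.00836%), MC4R, at an adjusted p of 0.0367, with 91 genes at an unadjusted p under 0.05. All 9 genes differed by at least 1.5-fold in the same direction in both pairs, and the arrays of the nuclei did not overlap for any of them. The calls were made from these same arrays, so both features add no support to them. Non-overlap alone was common: both Centre Median arrays lay above both Medial Thalamus arrays for 957 genes (8.0%) and below both for 940 genes (7.86%).

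The calls depended on which arrays entered. Without Centre Median replicate 1 only MC4R was called (adjusted p = 0.00427), and the other 8 genes had adjusted p from 0.196 to 0.602. Without Centre Median replicate 2 there were 12 calls, of which 7 were among the 9, with EPHA4 and ADCYAP1 lost at adjusted p of 0.0648 and 0.126. Without Medial Thalamus replicate 1 there were 28 calls, 7 higher and 21 lower, and DIRAS3 was lost (adjusted p = 0.0723). Without Medial Thalamus replicate 2 there were 60 calls, 44 higher and 16 lower, which included all 9. The replicate 1 arrays were also split into blocks by XIST, while RPS4Y1 was examined but made no split. The Centre Median and Medial Thalamus arrays of replicate 1 then fell in different blocks, so they were no longer compared within a block. With this split there were 6 calls, of which 5 were among the 9, and ADCYAP1, DIRAS3, EPHA4 and NPTX2 had adjusted p from 0.0838 to 0.167. All 9 differences kept their sign in each of these fits. Both pairs of each gene already had that sign, so leaving out 1 array could hardly change it, and this adds no support.

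A fold threshold applied to each pair gave a wider set, as a description with no test. At least 1.5-fold higher in the Centre Median in both pairs were 37 genes (0.309%), and at least 1.5-fold lower in both were 10 genes (0.0836%). The median difference over all genes was -0.0036, and 49.1% of genes lay above 0. Across all genes the differences of the pairs correlated at 0.167 (Pearson) and 0.102 (Spearman), and 6321 genes (52.8%) had the same sign in both pairs. These are correlations across genes, which are not independent replicates. The replicate 1 pair spread more widely, with an SD of 0.289 against 0.213 and with 394 genes higher and 177 lower by at least 1.5-fold, against 95 and 97 in the replicate 2 pair.

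**Figure D1:**
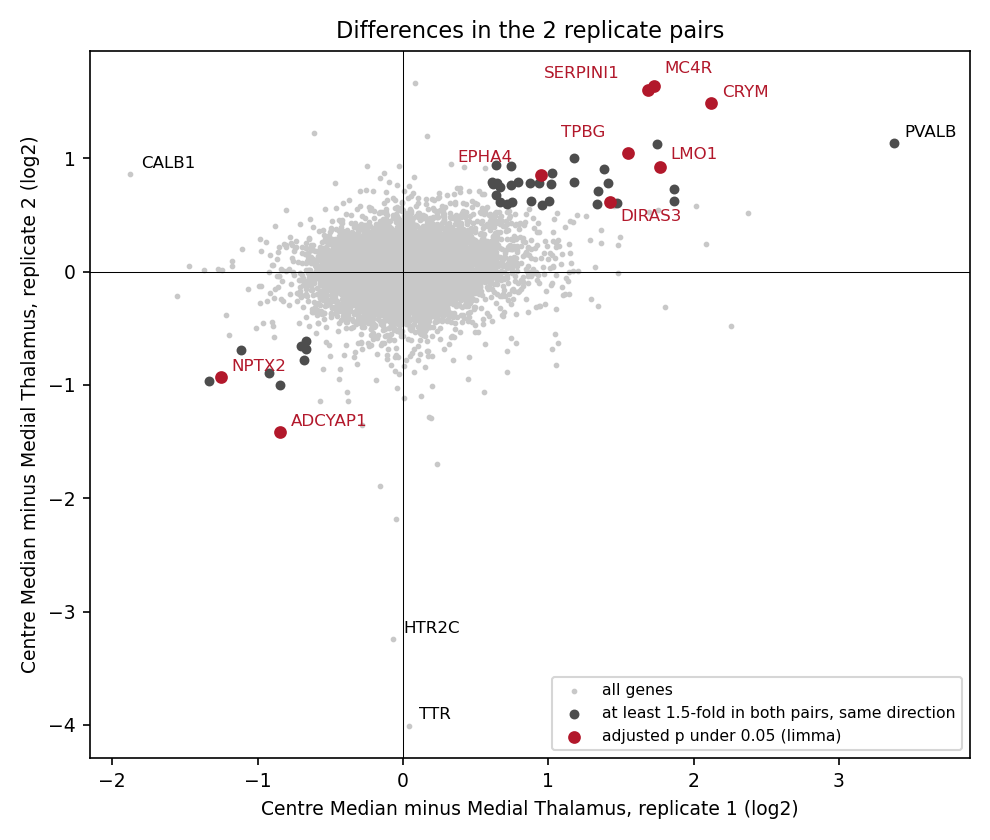
Each point is a gene, with its Centre Median minus Medial Thalamus difference (log2) in replicate 1 on the horizontal axis and in replicate 2 on the vertical axis. The 9 called genes (red) lie away from 0 in the same direction on both axes, PVALB has the widest replicate 1 difference at 3.38, and TTR and HTR2C lie near 0 in replicate 1 but at -4.01 and -3.25 in replicate 2.

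Among receptors, MC4R gave the smallest p. It encodes the melanocortin 4 receptor, which binds peptides cut from the POMC precursor and raises cyclic AMP. MC4R read 8.25 and 8.17 in Centre Median replicates 1 and 2, and 6.52 and 6.53 in Medial Thalamus replicates 1 and 2. The replicates of each nucleus lay close together, and the nuclei did not overlap. The difference was 1.68 (SE 0.119), or 3.22-fold (adjusted p = 4.83e-05 by limma). The 6 arrays of the other nuclei ranged from 6.32 to 6.54, a range that holds both Medial Thalamus arrays. The related receptor MC3R differed by 0.11 (adjusted p = 0.892), and POMC itself by -0.16 (adjusted p = 0.822). Of 28 neuropeptide receptors measured, MC4R was the 1 that was called, 14 lay above 0, and the median was -0.01.

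EPHA4, a receptor for ephrins that guides growing axons and acts at mature synapses, rose as well. Its levels were 9.20 and 8.31 in the Centre Median and 8.25 and 7.46 in the Medial Thalamus. Both nuclei read lower in replicate 2, and the lower Centre Median array lay only just above the higher Medial Thalamus array. The pairs differed by 0.95 and 0.86, with a mean of 0.90 (SE 0.124, 1.87-fold, adjusted p = 0.0123). Other nuclei spanned 7.36 to 8.86, a range that holds both Medial Thalamus arrays and the lower Centre Median array. EPHA4 was the 1 called gene of 40 axon guidance genes, of which 16 lay above 0 with a median of -0.03. EFNA1, an ephrin ligand of such receptors, differed by 0.43 (adjusted p = 0.322), and PLXNC1, a semaphorin receptor, stood at 7.38 and 8.77 against 8.72 and 9.73, a difference of -1.15 (SE 0.304, adjusted p = 0.245), but its 2 other probe sets gave -0.30 and -0.01.

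LMO1, a LIM-domain protein that bridges transcription factors, was higher in the Centre Median. It stood at 7.17 and 6.75 there and at 5.40 and 5.83 in the Medial Thalamus. Each Centre Median array exceeded each Medial Thalamus array, and the wider gap was in replicate 1, at 1.77 against 0.92. The mean difference was 1.35 (SE 0.161, 2.54-fold, adjusted p = 0.00674). In the 3 other nuclei LMO1 ranged from 5.47 to 5.67, so the Medial Thalamus arrays lay on either side of that range. Among 26 thalamic transcription factors 1 was called, 15 lay above 0 and the median was 0.09. ETV1, an ETS-family factor, read 10.06 and 9.78 against 8.31 and 8.65, a difference of 1.44 (SE 0.272, 2.71-fold) that missed the threshold at an adjusted p of 0.126, and its 4 other probe sets differed by 0.29 to 1.04. LEF1, a nuclear partner of beta-catenin, differed by 1.04 (adjusted p = 0.156), with 0.14 and 0.32 in its 2 other probe sets. ZIC1, a zinc-finger factor of neural development, went the other way, with 9.80 and 10.11 in the Centre Median against 10.72 and 11.01 (difference -0.91, SE 0.19, adjusted p = 0.136).

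TPBG and DIRAS3 modulate signalling pathways. TPBG, a membrane glycoprotein that inhibits canonical Wnt signalling, had levels of 7.76 and 7.55 in the Centre Median and 6.22 and 6.51 in the Medial Thalamus. Both Centre Median arrays were more than 1 log2 unit above both Medial Thalamus arrays. The difference was 1.30 (SE 0.144, 2.45-fold, adjusted p = 0.00426). TPBG was the 1 called member of 36 Wnt pathway genes, of which 11 lay above 0 with a median of -0.05. DIRAS3, an imprinted small GTPase of the Ras family that restrains growth signals, read 7.03 and 6.68 against 5.61 and 6.06. The arrays did not overlap, and the replicate 2 pair, at 0.62, was less than the replicate 1 pair, at 1.43. The mean difference was 1.02 (SE 0.153, 2.03-fold, adjusted p = 0.0239). DIRAS3 ranged from 5.27 to 5.35 in the other nuclei, below both Medial Thalamus arrays. Its call was lost in 10 of 22 alternative fits, with an adjusted p of 0.0832 without Anterior Thalamus replicate 1 and 0.0856 without Anterior Thalamus replicate 2. Of 28 small GTPases and regulators it was the 1 called, with 12 above 0 and a median of -0.07.

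CRYM and SERPINI1, a hormone-binding protein and a protease inhibitor, rose more than 3-fold. CRYM, or mu-crystallin, binds thyroid hormone in the cytosol. It stood at 11.11 and 10.14 in the Centre Median and 8.99 and 8.65 in the Medial Thalamus. The Centre Median replicates were further apart than those of the Medial Thalamus, but closer than the nuclei in either pair, which differed by 2.12 and 1.49. The mean difference of 1.81 (SE 0.229, 3.50-fold, adjusted p = 0.00909) was the widest of the 9. SERPINI1, or neuroserpin, is secreted by neurons and inhibits tissue plasminogen activator. It read 11.14 and 10.63 against 9.45 and 9.03, and the pairs were alike, at 1.68 and 1.60. Its difference was 1.64 (SE 0.222, 3.12-fold, adjusted p = 0.0123). Arrays of the other nuclei ranged from 8.68 to 9.52 for CRYM and from 8.96 to 9.64 for SERPINI1, all below both Centre Median arrays.

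Both genes called lower in the Centre Median encode proteins that neurons secrete. ADCYAP1 encodes the peptide PACAP, a neuromodulator that acts through cyclic AMP. Levels were 7.53 and 6.99 in the Centre Median and 8.37 and 8.41 in the Medial Thalamus. The Medial Thalamus replicates lay close together, and both exceeded the 8 other arrays, of which the 6 from the remaining nuclei reached 7.70. ADCYAP1 fell by 1.13 on the log2 scale (SE 0.162, 2.19-fold lower, adjusted p = 0.0169). Its call was also lost without Anterior Thalamus replicate 1 or 2 (adjusted p of 0.0562 and 0.0575), whereas without Medial Thalamus replicate 2, the array with choroid plexus and habenula genes, it remained (difference -0.86, adjusted p = 0.0465). Its receptor ADCYAP1R1 differed by 0.14 (adjusted p = 0.837). NPTX2, a secreted pentraxin that clusters AMPA receptors, stood at 7.46 and 7.28 in the Centre Median and at 8.71 and 8.21 in the Medial Thalamus. Here the Centre Median was the low extreme, below all 6 arrays of the other nuclei, which ranged from 7.90 to 9.04. NPTX2 fell by 1.09 (SE 0.15, 2.13-fold lower, adjusted p = 0.0123), and it was 1 of 18 synaptic organisers called.

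**Figure D2:**
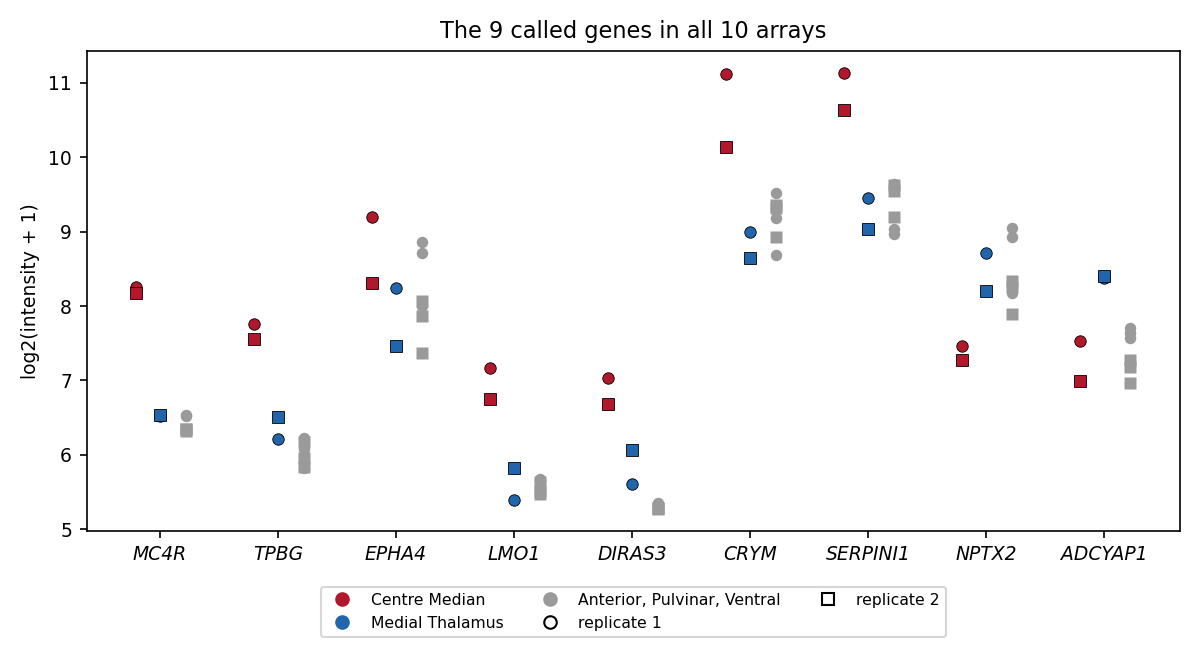
Level (log2(intensity + 1)) of the 9 called genes on each array, with Centre Median in red, Medial Thalamus in blue and the 3 other nuclei in grey, circles for replicate 1 and squares for replicate 2. For MC4R the Centre Median arrays stand at 8.25 and 8.17 and all 8 others at or below 6.54, for NPTX2 the Centre Median is lowest, and for ADCYAP1 the Medial Thalamus is highest.

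The 37 genes at least 1.5-fold higher in both pairs were next set against the other nuclei, as a description. Choosing genes by this difference itself favours a high Centre Median rank and a low Medial Thalamus rank, and the reverse for the lower genes. The ranks are therefore no support for the choice. The Centre Median had the highest mean of the 5 nuclei for 29 and the second highest for 8, and the Medial Thalamus had the lowest mean for 22. Both nuclei were at their extremes for 14 genes, the Centre Median alone for 15, and the Medial Thalamus alone for 8. MC4R, TPBG, LMO1, CRYM, SERPINI1, EPHA4 and DIRAS3 were among those in which only the Centre Median mean was at its extreme. A rank of means does not make the Centre Median distinct. For EPHA4 the other nuclei reached 8.86, above Centre Median replicate 2 at 8.31. For DIRAS3 the Medial Thalamus arrays, at 5.61 and 6.06, also lay above the other nuclei, which reached 5.35. PVALB, MOG, MOBP and UGT8 were among those in which the Medial Thalamus alone was the extreme. Of the 10 genes lower in both pairs, the Medial Thalamus had the highest mean for 8 and the Centre Median the lowest for 5. Where these genes had further probe sets, 20 of 23 had the same sign among the higher genes and 4 of 4 among the lower. None of the genes called by limma had a further probe set, so these counts do not bear on them, and each call rests on 1 human probe set. A shared sign did not mean a like size: all 4 other probe sets of the lower genes lay nearer 0, at -0.30 and -0.01 for PLXNC1, -0.14 for GFAP and -0.10 for LRP8. Those of the higher genes also lay nearer 0, except for ITPR1, at 0.96 and 1.01 against 0.81.

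Calcium-binding proteins buffer or sense calcium and are classical markers of thalamic cell groups. Parvalbumin, encoded by PVALB, had the widest mean difference of any gene. Its levels were 11.32 and 10.38 in the Centre Median and 7.94 and 9.25 in the Medial Thalamus. The nuclei did not overlap, but the pairs differed in size, at 3.38 and 1.13. The mean of 2.25 (SE 0.489, 4.77-fold) did not pass over all genes (adjusted p = 0.149). It passed without Centre Median replicate 2 (difference 3.32, adjusted p = 0.0111), whereas without Centre Median replicate 1 the difference was 1.19 (adjusted p = 1). With the block split by XIST it was 1.23 (adjusted p = 0.167). CALB2, or calretinin, ran the other way, at 9.39 and 9.25 against 10.28 and 9.83 (difference -0.73, SE 0.201, adjusted p = 0.27). PCP4, a small modulator of calmodulin, stood at 10.31 and 10.69 against 11.27 and 11.14 (difference -0.71, adjusted p = 0.243), and NECAB2, a neuronal calcium-binding protein, differed by -0.57 (adjusted p = 0.356).

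CALB1, or calbindin, gave opposite signs in the pairs. It read 5.71 in Centre Median replicate 1 and 8.69 in replicate 2, against 7.58 and 7.83 in the Medial Thalamus. The Centre Median arrays thus bracketed the Medial Thalamus arrays, and the mean difference of -0.51 had an SE of 0.503 (adjusted p = 0.863). Over the 17 measured calcium-binding genes 0 were called by limma, 5 lay above 0, and the median was -0.19 against -0.0036 for all genes. An unadjusted p under 0.05 was reached by 1 higher and 3 lower members, against 595 higher and 411 lower of all 11963 genes. The pair medians were -0.16 and -0.04.

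Single genes of calcium release and calcium-dependent signalling, taken from 3 lists, were higher in both pairs without passing. ITPR1, the inositol trisphosphate receptor of the endoplasmic reticulum, stood at 8.92 and 8.55 against 7.91 and 7.93. The arrays did not overlap, and the difference was 0.81 (SE 0.217, adjusted p = 0.249), with 0.96 and 1.01 in its 2 other probe sets. Its list of calcium pumps, exchangers and store channels had 8 of 15 above 0, a median of 0.02 and pair medians of 0.01 and -0.02. CACNA2D3, an auxiliary subunit of voltage-gated calcium channels, read 9.98 and 9.09 against 8.60 and 8.18 (difference 1.15, SE 0.302, adjusted p = 0.245). PPP3CA, the catalytic subunit of the calcium-activated phosphatase calcineurin, stood at 10.43 and 10.58 against 9.81 and 9.80 (difference 0.70, adjusted p = 0.245). CAMK4, a calmodulin-dependent kinase of the nucleus, differed by 0.55 (adjusted p = 0.26). In the list of cyclic nucleotide and protein kinase genes 17 of 25 lay above 0, with a median of 0.14 and pair medians of 0.14 and 0.12, and 0 were called by limma (4 at an unadjusted p under 0.05, all higher). Voltage-gated calcium channel genes, the list of CACNA2D3, had 4 of 16 above 0 and a median of -0.09, with pair medians of -0.20 and 0.01.

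GRM3, a metabotropic glutamate receptor of neurons and astrocytes that lowers cyclic AMP, came closest to the threshold among genes that missed it. Levels were 9.06 and 9.14 in the Centre Median and 7.19 and 8.41 in the Medial Thalamus. The Centre Median arrays were alike, and Medial Thalamus replicate 1 was the low array. The difference was 1.30 (SE 0.222, 2.46-fold, adjusted p = 0.0765), and it passed in 2 of 23 alternative fits, without Medial Thalamus replicate 2 (adjusted p = 0.0305) or without Centre Median replicate 2 (adjusted p = 0.0046). Without Centre Median replicate 1 the difference was 0.81 (adjusted p = 0.66), and without Medial Thalamus replicate 1 it was 1.07 (adjusted p = 0.223). Among 12 genes of metabotropic glutamate signalling 8 lay above 0, with a median of 0.06, but the pair medians had opposite signs, at -0.08 and 0.10. PLCB4, a phospholipase of glutamate receptor signalling, differed by 0.61 (adjusted p = 0.187). SCN1A, a sodium channel of fast-spiking neurons, read 6.89 and 8.43 against 5.43 and 7.85, which overlapped across replicates while both pairs were positive (difference 1.02, adjusted p = 0.187). ADGRL2, a latrophilin of synapses, was higher by 0.95 (adjusted p = 0.105), in a list of synaptic organisers with 9 of 18 above 0 and a median of -0.0010. CDH9, a synaptic cadherin, was higher by 0.84 (adjusted p = 0.187), in a list of cadherins with 12 of 22 above 0, a median of 0.05 and pair medians of -0.07 and 0.15. EDIL3, an extracellular ligand of integrins that is in no list, was higher by 1.10 (adjusted p = 0.126).

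More neuropeptide precursors lay lower than higher in the Centre Median. Of 22 measured, 8 lay above 0 and 14 below, and the median was -0.13, with pair medians of -0.19 and -0.0029. ADCYAP1 was the 1 called. NTS, the neurotensin precursor, stood at 9.87 and 9.67 in the Centre Median against 10.98 and 10.36, with no overlap, but ranged from 6.40 to 11.39 across the other nuclei (difference -0.90, SE 0.727, adjusted p = 0.818). CRH, the corticotropin-releasing hormone precursor, read 9.61 and 9.71 against 11.17 and 9.93. The gap was wide in replicate 1 and narrow in replicate 2, at -1.56 and -0.22, and CRH passed in the fit without Medial Thalamus replicate 2 (adjusted p = 0.0238). TRH, the thyrotropin-releasing hormone precursor, differed by -0.63 (adjusted p = 0.243). NPY, a peptide of inhibitory interneurons, was the furthest above 0 of the 8 on that side, at 8.23 and 7.09 against 6.89 and 6.50 (difference 0.97, SE 0.201, adjusted p = 0.136), and CHGB, a granin of dense-core vesicles, differed by 0.35 (adjusted p = 0.543).

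Other genes lower in the Centre Median did not pass. ANXA2, a membrane-binding annexin, stood at 7.93 and 7.69 against 9.13 and 8.25 (difference -0.88, SE 0.158, adjusted p = 0.105), and its 2 other probe sets differed by -1.01 and -0.84. Medial Thalamus replicate 1 was the highest of the 4 arrays. NNAT, LRP8 and ASS1 differed by -0.70, -0.68 and -0.73, each at an adjusted p of 0.126. LRP8 is a receptor for reelin, and its other probe set gave -0.10. The enzyme ASS1 makes argininosuccinate in the urea and nitric oxide cycles. GPX1, which reduces peroxides, differed by -0.64 (adjusted p = 0.135).

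Among glial genes, those of oligodendrocytes and myelin lay mostly higher in the Centre Median. Of 26 measured, 23 lay above 0, and the median difference was 0.28, with pair medians of 0.26 and 0.25. For 16 of the 26 both Centre Median arrays exceeded both Medial Thalamus arrays, and for 0 the reverse held, against 8.0% and 7.86% of all genes. limma called 0 of them, and at an unadjusted p under 0.05 there were 12 higher and 0 lower members. Over all 11963 genes there were 595 higher and 411 lower at that threshold. MOG, a glycoprotein of the outer myelin surface, stood at 9.70 and 9.78 against 9.02 and 9.16 (difference 0.64, SE 0.154, adjusted p = 0.203). MOBP, a structural myelin protein, read 11.03 and 11.35 against 10.16 and 10.57 (difference 0.83, adjusted p = 0.422). UGT8, which makes the myelin lipid galactosylceramide, read 8.78 and 8.43 against 8.12 and 7.68 (difference 0.71, adjusted p = 0.22). For all 3 the arrays of the nuclei did not overlap and both pairs exceeded 1.5-fold.

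Other myelin genes differed less evenly between pairs. MBP, myelin basic protein, read 12.92 and 13.31 against 12.22 and 12.90, a difference of 0.55 (adjusted p = 0.498). MAG, the myelin-associated glycoprotein, differed by 0.59 and CA2, a carbonic anhydrase of oligodendrocytes, by 0.61 (adjusted p of 0.245 and 0.151). ENPP2, which makes lysophosphatidic acid and is also a choroid plexus gene, gave 2.09 in the replicate 1 pair and 0.24 in the replicate 2 pair. QDPR, an enzyme of biopterin recycling, gave 1.15 and 0.16. The transcription factor OLIG2 lay at -0.01 and the list of 8 oligodendrocyte precursor genes at a median of -0.05. Over the alternatives the myelin median ranged from 0.25 to 0.38. The summed level of the list was 14.29 and 14.55 in the Centre Median and 13.56 and 14.18 in the Medial Thalamus, and none of its members was at 0.

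**Figure D3:**
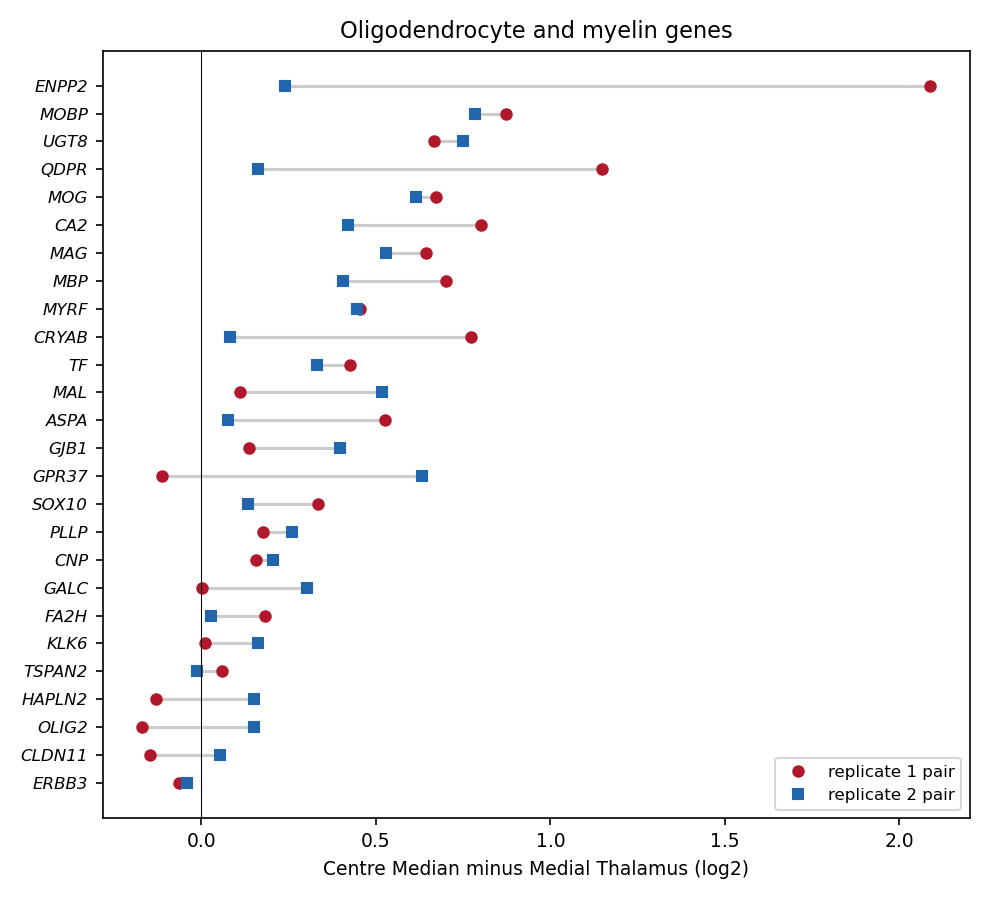
Difference between Centre Median and Medial Thalamus (log2) of each of the 26 measured oligodendrocyte and myelin genes, with red circles for the replicate 1 pair and blue squares for the replicate 2 pair, ordered by the mean of both. MOBP, UGT8 and MOG lie past 1.5-fold in both pairs, whereas ENPP2 lies at 2.09 and 0.24.

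Astrocyte genes had no common direction, with 7 of 21 above 0 and a median of -0.08. GFAP, the astrocyte intermediate filament, read 10.35 and 11.44 in the Centre Median and 11.19 and 12.44 in the Medial Thalamus. It was lower in the Centre Median within both pairs, by 0.84 and 1.00, although the arrays overlapped across replicates. The difference of -0.92 (SE 0.263) did not pass (adjusted p = 0.294), and its other probe set gave -0.14. AQP4 and GJA1, the astrocytic water channel and gap junction protein, differed by 0.09 and -0.18. GAD1, the GABA-synthesising enzyme of inhibitory neurons, stood at 9.73 and 10.07 against 8.54 and 9.58, with Medial Thalamus replicate 1 the low array (difference 0.85, adjusted p = 0.22). Its partner GAD2 differed by 0.16 (adjusted p = 0.883).

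A small set of genes stood out on Medial Thalamus replicate 2. On it, 11 genes lay at least 1 log2 unit above all 4 other replicate 2 arrays. TTR, the thyroid hormone carrier made in bulk by the choroid plexus, read 12.19 there, 13.7-fold above the next replicate 2 array, and 7.63 in Medial Thalamus replicate 1. It stood at 7.67 and 8.18 in the Centre Median, so only 1 of the 4 arrays was high. HTR2C, a serotonin receptor abundant in choroid plexus, read 8.83 on that array and 6.13 on the other Medial Thalamus array, against 6.06 and 5.59 in the Centre Median. Its mean difference over both pairs was -1.66, and its other probe set gave -0.47. POU4F1 and NR4A2, transcription factors found in the habenula, stood at 7.36 and 7.76 on Medial Thalamus replicate 2 and at 5.56 and 5.41 on replicate 1. CADPS2, which primes dense-core vesicles, read 7.85, and ADCYAP1, called above, was among the 11 as well. Over the list of choroid plexus, ependymal and meningeal genes, 12 of 16 were lower in the Centre Median in the replicate 2 pair and 7 of 16 in the replicate 1 pair. The summed level of that list was 12.56 and 12.80 in the Centre Median and 12.33 and 13.73 in the Medial Thalamus.

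Not all markers of these tissues were raised on that array. FOLR1, a folate receptor of the choroid plexus, stood at 10.35 there and at 10.48 in Centre Median replicate 2, and FOXJ1, a factor of ciliated cells, at 7.11 and 7.13. Over both pairs FOLR1 differed by 0.225, but its other probe set went the other way, at -0.198. CHRNB4, a nicotinic subunit of the medial habenula, was near the bottom of the scale on all 4 arrays, at 4.16 to 4.47. Of 9 habenula genes, 8 were lower in the Centre Median in the replicate 2 pair and 4 in the replicate 1 pair, and their summed level was 10.11 and 9.87 in the Centre Median against 10.10 and 10.45 in the Medial Thalamus. TTR and HTR2C did not pass in the full fit (adjusted p of 0.544 and 0.441). In the fit without Medial Thalamus replicate 1, which leaves this array as the only Medial Thalamus sample, TTR, HTR2C, CADPS2, NR4A2, POU4F1, COL1A2 and VCAM1 were among the 21 genes called lower. In the fit without Medial Thalamus replicate 2 the choroid plexus and habenula medians were 0.05 and 0.04, and in the fit with all arrays they were -0.11 and -0.14.

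**Figure D4:**
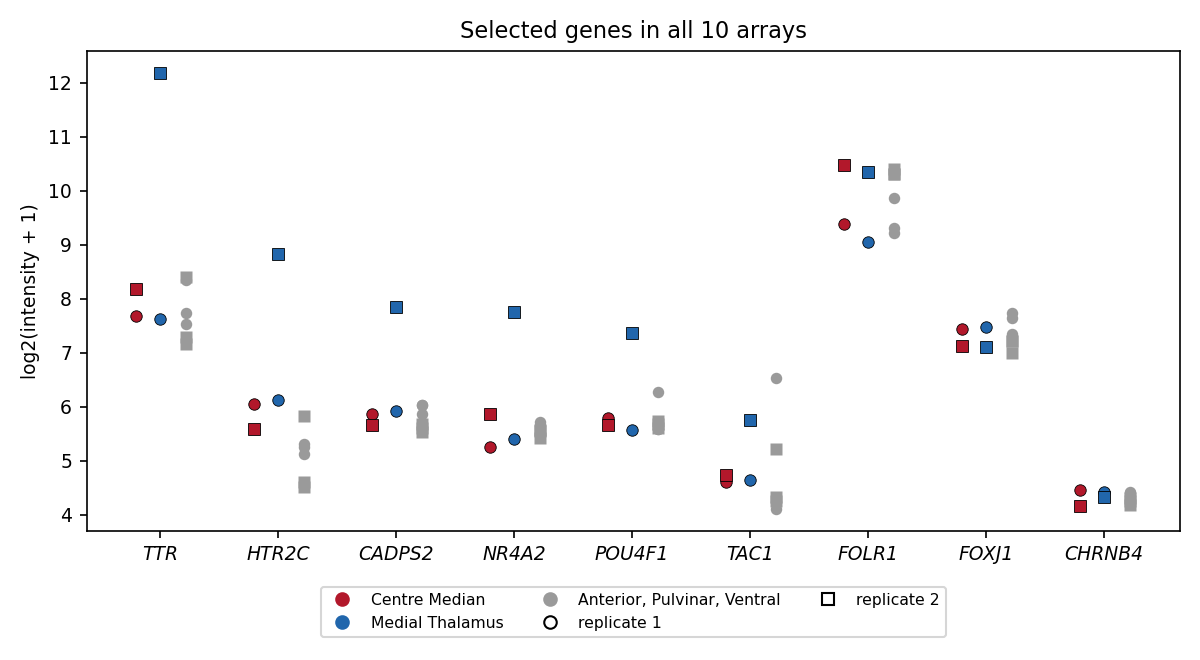
Level (log2(intensity + 1)) of 9 genes on each of the 10 arrays, with colours by nucleus and symbols by replicate. Medial Thalamus replicate 2 (blue square) is far above all other arrays for TTR at 12.19, HTR2C at 8.83, CADPS2 at 7.85, NR4A2 at 7.76 and POU4F1 at 7.36, and not for FOLR1, FOXJ1 or CHRNB4.

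Genes of microglia and antigen presentation also differed between the pairs in their balance. In the replicate 2 pair 18 of 20 were lower in the Centre Median, with a median of -0.25, and in the replicate 1 pair 10 of 20, with a median of 0.0006. HLA-DRA, a class II antigen-presenting chain, read 8.04 and 7.95 in the Centre Median and 7.48 and 9.01 in the Medial Thalamus, so the Medial Thalamus arrays lay on both sides. B2M, the light chain of class I molecules, gave 0.72 and -0.89 in the pairs. CSF1R and AIF1, which mark microglia, differed by -0.0022 and -0.17. limma called 0 of the 20, and 3 were lower at an unadjusted p under 0.05, as were 411 of all 11963 genes.

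Medial Thalamus replicate 1 was low for other genes. On it 6 genes lay at least 1 log2 unit below all 4 other replicate 1 arrays, namely GAD1, ZEB2, ST18, WWP1, CDS1 and CHRDL1. Without Medial Thalamus replicate 2, which leaves this array alone, ZEB2, a transcriptional repressor, differed by 1.75 (adjusted p = 0.000363), ENPP2 by 1.73 (adjusted p = 0.0302), LEF1 by 1.46 (adjusted p = 0.0238) and RELN, the secreted protein reelin, by 1.28 (adjusted p = 0.0302). Centre Median replicate 1 had 13 genes as far above all other replicate 1 arrays, among them 6 of the 7 genes called higher, and Centre Median replicate 2 had 4, namely CBLN1, MC4R, TPBG and SERPINI1. CBLN1, a secreted organiser of synapses, read 8.94 and 8.67 in the Centre Median and 8.86 and 7.01 in the Medial Thalamus. The Medial Thalamus was level with the Centre Median in replicate 1 and lower in replicate 2.

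Gene lists for cell machinery had medians closer to 0 in the replicate 2 pair than in the replicate 1 pair. Of 37 cytosolic ribosomal protein genes 33 lay above 0, with a median of 0.16 and pair medians of 0.27 and 0.06. Of 61 respiratory chain and ATP synthase genes 45 lay above 0, with a median of 0.08 and pair medians of 0.14 and 0.02. Synaptic vesicle genes had 9 of 30 members above 0, a median of -0.09 and pair medians of -0.23 and -0.01. SYT1, the main calcium sensor of vesicle release, was among the 9, at 12.29 and 12.09 against 11.39 and 11.62 (difference 0.68, adjusted p = 0.27). limma called 0 members of each of these 3 lists, with 0 ribosomal, 2 respiratory chain and 5 synaptic vesicle genes at an unadjusted p under 0.05. Of all 11963 genes, 1006 reached that threshold. The actin 3' minus 5' signal also differed between the nuclei, at 0.46 and -0.09 in replicate 1 and 1.15 and 1.34 in replicate 2. In the fit with this signal as a covariate the medians of these 3 lists kept their sign. Its part in the medians was not tested further.

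**Figure D5:**
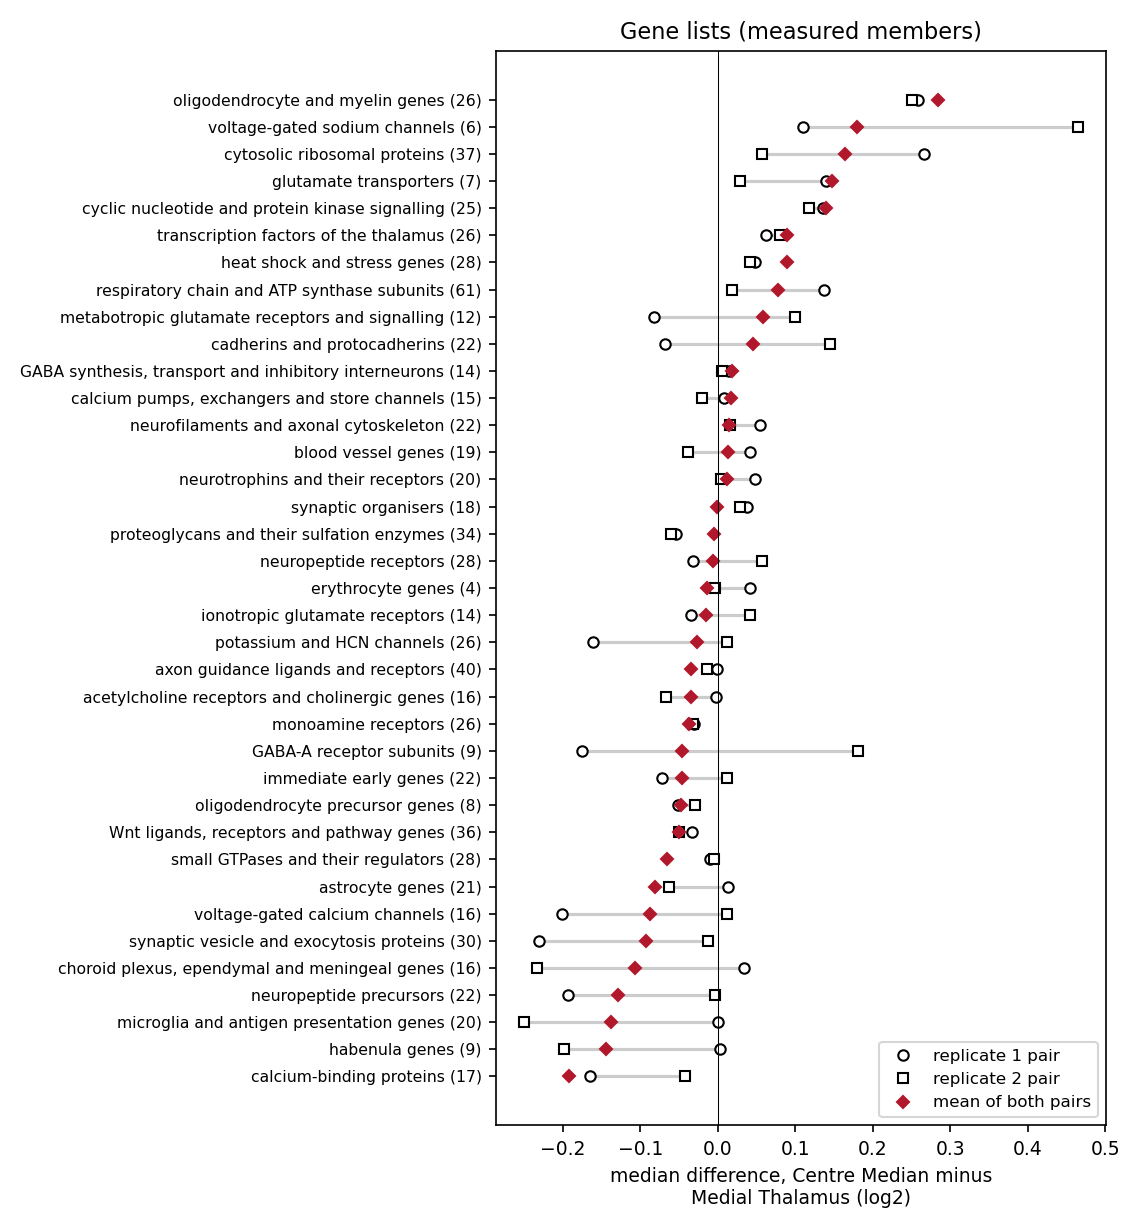
Median Centre Median minus Medial Thalamus difference (log2) of each gene list, with the number of measured members in brackets, open circles for the replicate 1 pair, open squares for the replicate 2 pair and red diamonds for the mean of both. Myelin genes have like medians in both pairs, at 0.26 and 0.25, whereas microglia, choroid plexus and habenula genes lie near 0 in replicate 1 and at -0.25, -0.23 and -0.20 in replicate 2.

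The pairs disagreed outright for 9 genes, each at least 1.5-fold higher in one pair and at least 1.5-fold lower in the other. They were AP1S2, B2M, CALB1, CARTPT, CCND1, CHRDL1, MCTP1, PDE2A and ZFP36L1. CALB1 gave -1.88 and 0.86, and CARTPT, the precursor of the CART peptides, gave -0.61 and 1.23. The other 7 were higher in the Centre Median in replicate 1 and lower in replicate 2, such as PDE2A, a phosphodiesterase of cyclic nucleotides, at 1.07 and -0.63, and ZFP36L1, an RNA-destabilising protein, at 0.75 and -0.59.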

How the data were processed

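RNA from micro-punches was measured on 10 arrays, 2 for each of 5 nuclei, and 4 of them are compared here. Per the submitters' processing notes the authors used RMA, with no version, and the deposited values are normalised intensities on a linear scale. Build and annotation are not given in the sources used here. Whether replicates 1 and 2 were normalised together is not stated: the lowest intensity was 12.0 to 12.3 on replicate 1 arrays and 9.49 to 9.55 on replicate 2 arrays. Median intensities were 94.2 to 100.6, and precision is limited by the number of arrays. No detection calls were used, and human probes may bind monkey transcripts weakly, so a low value was not read as absence.

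Of 22283 probe sets, 68 were controls, 2107 unlisted in the platform annotation and 1043 of several genes. The 19065 with 1 gene symbol gave 11963 genes, and for the 4310 genes with several probe sets the one with the highest mean over 10 arrays was taken. No low values were filtered. log2(value + 1) was fitted with limma 3.58.1 (R 4.3.3; lmFit, eBayes with trend), with 1 coefficient per nucleus and the replicate number as a block over all 10 arrays. This fit had 4 residual and 8.66 prior degrees of freedom. Benjamini-Hochberg adjustment ran over all genes (called under 0.05, two-sided). The replicate 2 minus replicate 1 differences correlated at 0.758 to 0.831 between nuclei, so the number marks a shift that the nuclei share. This does not show that arrays with the same number came from the same animal. Among the replicate 1 arrays XIST ranged from 6.70 to 9.60 and RPS4Y1 from 7.22 to 8.94, so those arrays were not alike in sex-linked transcripts. A list's summed level is log2 of its summed intensities.

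Genes and lists were chosen with earlier results of these data known. Named genes were called genes (or the 8 smallest p in a direction with under 8), called members or the 2 smallest p of each list, cell type markers and array checks, and others were named after their values were seen. Alternatives were the block, the arrays fitted, the pseudocount, a filter, normalisation, the probe set, the variance trend, an actin covariate, a split block, a fold minimum and each array left out. The fit was also run on simulated data with independent noise and a replicate shift shared by all nuclei. That run assumed the block, so it checks the code and adds no support to the calls. Figures used Python 3.11.15 and matplotlib 3.10.9.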

Additional observations from a re-analysis of the deposited data

How the results depend on the processing

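Without the replicate block, the count of 9 called genes became 1 (1 higher, 0 lower, 91 at an unadjusted p under 0.05), and with only the 4 arrays and no block 0 (0 higher, 0 lower, 58 at an unadjusted p under 0.05). With only the 4 arrays and the block it was 9, of which 5 were the same genes, with CACNA2D3, ETV1, PLXNC1 and SPOCK3 in place of ADCYAP1, DIRAS3, EPHA4 and LMO1. A minimum mean log2 level of 7 left 5 (3 higher), since DIRAS3, LMO1, MC4R and TPBG were then not tested. The actin covariate gave 11 called genes, 4 of them lower, the added ones being HTR2C and MPPED2. The block split by XIST gave 0 lower. Leaving out 1 array at a time gave 1 to 60 called genes, 1 to 44 higher and 0 to 21 lower, where an arm left with 1 array borrows its spread from the other nuclei. The remaining settings (pseudocount, quantile or median normalisation, other probe sets, no variance trend, a fold minimum) gave 8 or 9. The probe set settings left the differences of the 9 genes unchanged, as none of them had another probe set. The fold minimum could not remove any, since all 9 already exceeded it. No difference of the 16 leading genes, chosen by smallest p from these arrays, changed sign. All 16 had the same sign in both pairs, so this outcome was nearly fixed and adds no support. Dropping the block, fitting only the 4 arrays, removing the variance trend or leaving out an array of another nucleus also left each difference unchanged. With 2 arrays a group, small differences were not detectable.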
